A study of Mus musculus with 64 samples.

Results

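The 9 monocyte-derived cell genes described here, Ccr2, Ccr1, Ly6c2, Plac8, Lyz2, Chil3, S100a4, S100a6 and Vim, were chosen by name out of the 5647 genes of the table, and all 9 had a row. They were followed in 64 libraries of sorted brain cells of wild-type C57BL/6J mice, an inbred strain, with 1 mouse a library. Females given lipopolysaccharide (LPS, a bacterial wall component, 0.5 mg/kg intraperitoneally 2 h before death) were 3 (n = 3), 14 (n = 5) and 24 months old (n = 3). PBS females were 3 (n = 4), 6 (n = 2), 9 (n = 3), 12 (n = 4), 14 (n = 5), 16 (n = 5) and 24 months old (n = 3), and PBS males were 3 (n = 4), 6 (n = 4), 9 (n = 4), 12 (n = 2), 16 (n = 4), 19 (n = 5) and 24 months old (n = 4). The brains were perfused, freed of the cerebellum and digested with papain with warming, and live cells were sorted as CD11b+ CD45 low, a gate that is meant to leave out the CD45-rich cells of the blood. RNA was amplified to full-length cDNA from small amounts.

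Monocytes are blood leukocytes that enter inflamed tissue through the chemokine receptor Ccr2 and become macrophages there. Freshly entered cells carry Ly6C and the secretory and cytoskeletal genes of young myeloid cells. Microglia settle in the brain before birth, renew themselves and keep most of these genes low. Several of the same genes are also read in neutrophils and in reactive microglia, so that no gene of the group marks monocyte-derived cells alone.

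The genes lie at separate sites apart from 2 close neighbours each on chromosomes 3 and 9. In GENCODE vM21 on GRCm38, Vim spans chr2:13573927-13582826 (+), S100a4 chr3:90603771-90606045 (+), S100a6 chr3:90612882-90624181 (+), Chil3 chr3:106147554-106167564 (−), Plac8 chr5:100553725-100572245 (−), Ccr1 chr9:123962124-123968692 (−), Ccr2 chr9:124101950-124113557 (+), Lyz2 chr10:117277331-117282321 (−) and Ly6c2 chr15:75108158-75111970 (−). Because most of these genes moved together, the 250 bases before their RefSeq start (GRCm38.p6, all 9 matched) were searched on both strands for 5 motifs. The C/EBP pattern TTNNGNAA, named for a factor family of myeloid cells, was found before 7 of the 9 genes and before 36.8% of all promoters. The PU.1 core GAGGAA, read by the factor that sets up macrophages, was found before 4 of 9 and before 23.3% of all, and the TATA box TATAAA before 2 of 9 (Vim and S100a4) and 12.4% of all. The AP-1 pattern TGANTCA and an NF-kB pattern were found before none of the 9, and before 6.75% and 1.21% of all. A match or its absence describes the letters of this window only.

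The 4 stretches printed here show the upstream bases of a receptor, a surface protein and 2 secreted or calcium-binding proteins whose values follow, printed 5′ to 3′ with every motif match in capitals. Ccr1 (chr9:123968693-123968942, minus strand) holds a C/EBP match that overlaps a PU.1 core, and Ly6c2 (chr15:75111972-75112221, minus strand) holds a match of each kind apart. Chil3 (chr3:106167565-106167814, minus strand) holds 3 C/EBP matches within 53 bases of the start, and S100a4 (chr3:90603520-90603769, plus strand) holds a TATA box 31 bases before it.
Ccr1: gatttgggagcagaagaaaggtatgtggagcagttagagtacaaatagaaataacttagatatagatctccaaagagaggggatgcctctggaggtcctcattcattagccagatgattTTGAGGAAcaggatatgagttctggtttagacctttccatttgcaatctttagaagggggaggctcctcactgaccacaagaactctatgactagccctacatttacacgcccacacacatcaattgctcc
Ly6c2: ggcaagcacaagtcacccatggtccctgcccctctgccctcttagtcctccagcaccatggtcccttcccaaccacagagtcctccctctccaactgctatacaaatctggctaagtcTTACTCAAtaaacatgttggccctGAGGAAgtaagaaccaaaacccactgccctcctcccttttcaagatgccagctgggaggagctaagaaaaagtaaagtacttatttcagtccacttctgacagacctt
Chil3: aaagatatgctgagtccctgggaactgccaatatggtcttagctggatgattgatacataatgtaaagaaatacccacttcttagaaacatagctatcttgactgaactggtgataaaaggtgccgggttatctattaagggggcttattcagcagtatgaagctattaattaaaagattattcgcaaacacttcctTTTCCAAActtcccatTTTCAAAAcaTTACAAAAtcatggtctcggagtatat
S100a4: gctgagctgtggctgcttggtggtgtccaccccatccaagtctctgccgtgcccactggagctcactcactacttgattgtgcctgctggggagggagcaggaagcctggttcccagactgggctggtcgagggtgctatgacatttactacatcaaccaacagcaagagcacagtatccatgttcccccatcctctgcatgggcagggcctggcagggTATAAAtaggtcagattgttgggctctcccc

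The values are batch-adjusted FPKM, a read count scaled by transcript length and library size, as the authors deposited them. On this scale Lyz2, the lysozyme of macrophages and neutrophils, averaged 2897 FPKM over the 64 libraries and ranked above 99.7% of the genes. Chil3, a secreted chitinase-like protein, averaged 198 FPKM, Ly6c2, which encodes a Ly6C surface protein, 74.9 FPKM, and Plac8, a small cysteine-rich protein of immune cells, 55.5 FPKM. The calcium-binding proteins S100a6 and S100a4 averaged 35.8 and 34.7 FPKM, the chemokine receptors Ccr1 and Ccr2 30.1 and 26.8 FPKM, and Vim, the intermediate filament vimentin, 30.0 FPKM. Lyz2 therefore sets most of any sum over the group, and sums are given below only beside single genes. S100a4 was listed at 0 in 1 library, and no other value of the group was 0.

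Some of these values may hold reads of a near copy. The longest transcripts of Ly6c2 and Ly6c1 were 97.6% identical, those of Chil3 and Chil4 94.3%, and those of Lyz2 and Lyz1 95.8%. Ly6c1 and Chil4 have no row in the table used here, and Lyz1 followed Lyz2 over the 17 group means (r = 0.996), so the values of Ly6c2, Chil3 and Lyz2 are uncertain as measures of that gene alone.

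The sorted cells matched their microglia label: all 17 homeostatic microglia markers, such as P2ry12 and Tmem119, had a row, and they summed to between 41176 and 73139 FPKM a library. Markers of other cells were present too. The 22 neutrophil genes measured summed to between 528 and 33314 FPKM a library and none was at 0 throughout, though Ly6g, Prtn3 and Ctsg have no row here. In bulk samples fewer cells of a type and less RNA of a gene per cell cannot be told apart. Libraries further differed in a feature of their values, since 21 of them, all PBS-treated, held no value between 0 and 1 (all 5 females of 16 months, male replicates 1 and 2 of 3 months, all males of 12, 16 and 24 months, and 4 of 5 males of 19 months). Fits named below as "within the set" use such male libraries alone. Whether this feature traces processing was not tested, and some libraries outside the set held only 1 value between 0 and 1. The most were in LPS female replicate 5 of 14 months (77), LPS female replicate 2 of 24 months (44) and PBS female replicate 3 of 24 months (25).

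In PBS females, 6 of the 9 genes changed across the 7 ages (adjusted p under 0.05 in limma's F test and a fold over 1.5 at 1 age or more), as did 14.8% of all genes. Plac8, S100a4, S100a6, Vim and Lyz2 had their largest change from 3 months upward, and Ccr2 had its own downward. Ly6c2, Ccr1 and Chil3 did not pass (adjusted p = 0.132, 0.116 and 0.321). The 3-month females stood high in several of these genes, and in the females most of what was higher appeared at 16 or 24 months.

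Ccr2, which guides monocytes out of the marrow and into tissue, was highest at both ends of the female series. Its mean was 37.0 FPKM at 3 months, 17.5 at 6, 19.0 at 9, 13 at 12, 23 at 14, 34.2 at 16 and 45.3 FPKM at 24 months. The 12-month females held 14, 10, 7 and 21 FPKM, against 40, 36, 43 and 29 FPKM in the 3-month females. The ranges did not overlap, and Ccr2 fell by 1.53 on the log2 scale (SE 0.32, adjusted p = 0.00595). Ccr2 was the 1 member called at 12 months, where 7.76% of all genes were lower (438 genes, or 100 after median-ratio scaling), and the call held without each of the 8 libraries in turn. At 24 months Ccr2 had 48, 55 and 33 FPKM and did not differ detectably from 3 months (log2 fold change 0.27, SE 0.35, adjusted p = 0.73).

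Ccr1, a receptor for inflammatory chemokines on monocytes and neutrophils, averaged between 14.0 FPKM (12 months) and 31.8 FPKM (16 months) in females. The 16-month females had 23, 35, 51, 22 and 28 FPKM, against 22, 12, 19 and 22 FPKM in the 3-month females, and the ranges met at 22. Without replicate 1 of 9 months, the lowest library of that age in all 9 genes, Ccr1 passed across ages (adjusted p = 0.0311).

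Plac8 had the largest change of the group in females. The 16-month females held 45, 69, 173, 71 and 117 FPKM, against 18, 12, 32 and 8 FPKM in the 3-month females, with no overlap. Plac8 rose by 2.39 on the log2 scale (SE 0.45, adjusted p = 0.0015). At 24 months it had 51, 24 and 16 FPKM, which overlapped the 3-month range (log2 fold change 0.77, SE 0.51, adjusted p = 0.436). Ly6c2 had the same shape, with 36, 88, 197, 99 and 156 FPKM at 16 months and 54, 40 and 23 FPKM at 24 months, against 64, 33, 100 and 30 FPKM at 3 months. Neither age passed for Ly6c2, although 16 months passed without its replicate 1, the lowest library of its age in 7 of the 9 genes (log2 fold change 1.33, adjusted p = 0.030). At 24 against 16 months Plac8 had a log2 fold change of −1.62 (adjusted p = 0.0544) and Ly6c2 of −1.41 (adjusted p = 0.0714), so no member was called there, where 3.95% of all genes were.

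S100a4, a calcium-binding protein of motile cells, had 31, 60, 56, 31 and 66 FPKM at 16 months, against 12, 9, 25 and 30 FPKM at 3 months. All 16-month libraries were above all 3-month ones, and S100a4 rose by 1.40 on the log2 scale (SE 0.35, adjusted p = 0.012). The call was lost without 3-month replicate 1 (adjusted p = 0.0572) or 2 (adjusted p = 0.0698). With Plac8 it made 2 of 9 members higher at 16 months, where 3.01% of all genes were higher. After median-ratio scaling 286 genes were higher and 104 lower, against 170 and 339 as deposited, and Vim was added to the members (adjusted p = 0.0449). That count was 4 without 16-month replicate 1, where Ly6c2 and Vim were added, and 1 without either of the 3-month replicates named.

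S100a6, a close relative of S100a4, stood highest at 24 months, with 94, 101 and 42 FPKM, against 35, 21, 24 and 17 FPKM at 3 months. The lowest 24-month library was above the highest 3-month one, and S100a6 rose by 1.61 (SE 0.42, adjusted p = 0.0422). It was the 1 member of 9 higher at 24 months, where 1.56% of all genes were higher. The call was lost without 24-month replicate 1 (adjusted p = 0.199) or 2 (0.138) or 3-month replicate 1 (0.0543), 2 (0.114), 3 (0.0768) or 4 (0.103), although S100a4 passed without the last of these.

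Vim and Lyz2 stood high at 24 months without passing there. Vim had 60, 55 and 34 FPKM at 24 months, against 18, 16, 32 and 26 FPKM at 3 months, with no overlap (log2 fold change 1.09, SE 0.39, adjusted p = 0.121). Lyz2 had 5657, 5528 and 3959 FPKM at 24 months, against 2966, 2490, 4015 and 2420 FPKM at 3 months, where 1 young library lay above the lowest old one (log2 fold change 0.78, SE 0.28, adjusted p = 0.126). The call of Lyz2 across ages was lost without 24-month replicate 1 (adjusted p = 0.0592) or 2 (adjusted p = 0.0574), and with libraries scaled to the same total (adjusted p = 0.0561). Chil3 varied most between mice of an age, with 478, 167 and 33 FPKM at 24 months, against 327, 212, 404 and 133 FPKM at 3 months. No member was called at 6, 9 or 14 months, where 0.301%, 2.66% and 3.31% of all genes were, and with no adjustment (raw p below 0.05 and a change above 1.5-fold) there were 1, 2 and 2 members, beside 8.15%, 12.7% and 11.4% of all genes.

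The neutrophil genes had a lower median sum at 16 months (9427 FPKM) and 24 months (8388 FPKM) than at 3 months (11040.5 FPKM), with overlapping ranges. They summed to between 3405 and 9198 FPKM at 24 months and between 2811 and 16277 FPKM at 16 months, against 7202 to 19110 FPKM at 3 months, and between 528 and 5928 FPKM at 9 months, where library 1 was lowest in all 9 members. In the same comparisons 2 of 22 neutrophil genes fell at 24 months (Mpo and Elane) and 2 rose at 16 months (Il1r2 and Hdc). T and NK cell genes, of which 4 had a row, summed to between 249 and 376 FPKM at 24 months, against 48 to 57 FPKM at 3 months, and all 4 rose. Their part in the members' levels was not tested. All females of 16 months, and no other females, belong to the set without values between 0 and 1, so for 16 months age and that feature cannot be told apart.

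**Figure D1:**
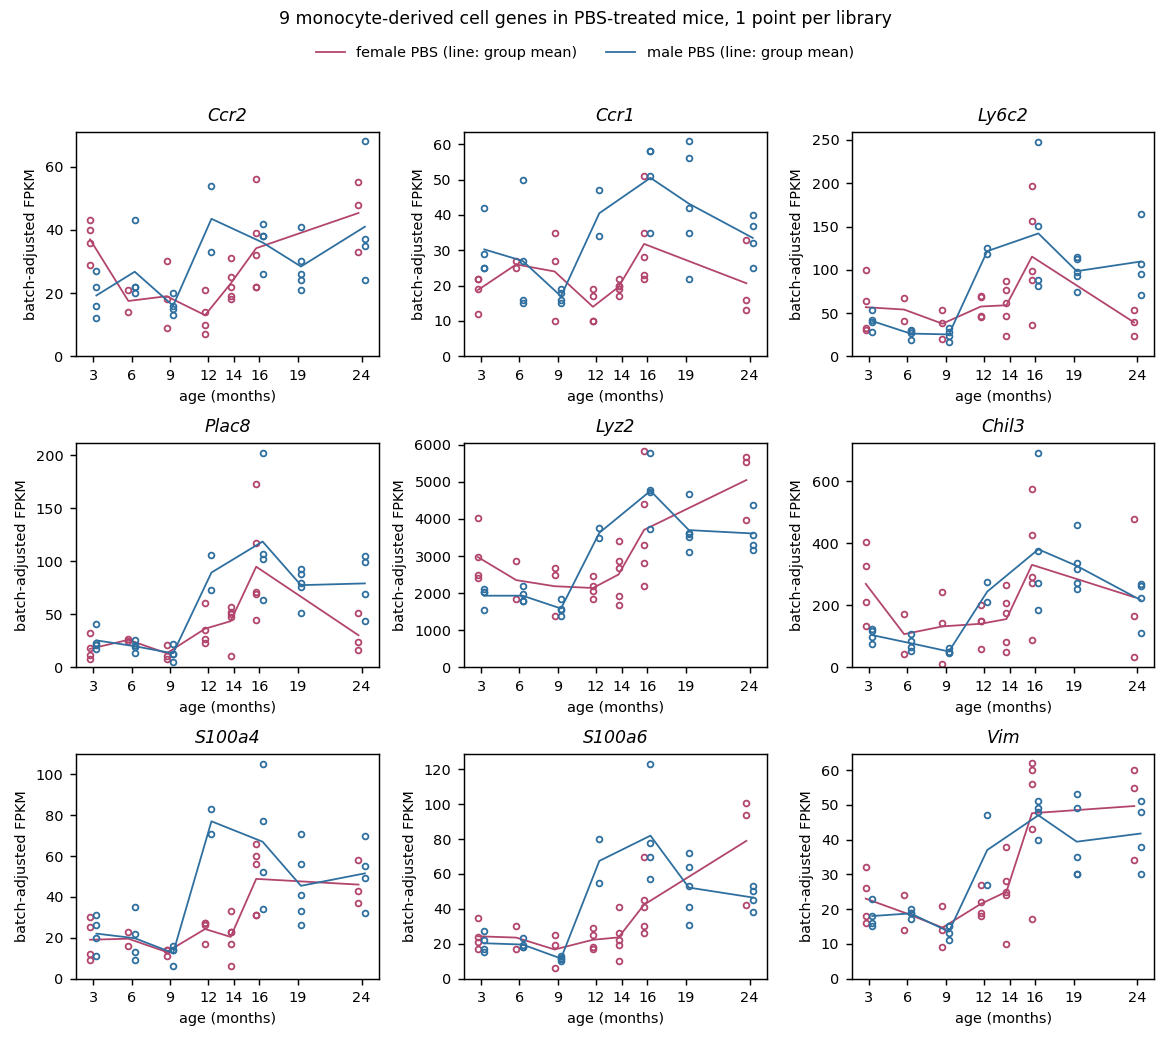
Batch-adjusted FPKM of the 9 genes (vertical axes) against age in months in PBS females and PBS males, with a point per library and lines through group means. In males 8 of the 9 genes rose between 9 and 12 months, while females reach their highest group mean at 16 months (Plac8, Ly6c2) or 24 months (S100a6, Lyz2).

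In PBS males, all 9 genes changed across the 7 ages, as did 8.36% of all genes, and all 9 calls held without each of the 27 libraries in turn. No member was called at 6 months, where 0% of all genes were, or at 9 months, where 0.0354% were. By that raw threshold there were 1 member and 3.21% of all genes at 6 months, and 5 members and 4.82% of all genes at 9 months. All 9 members had a negative log2 fold change at 9 months. From 12 months on, 4 to 8 members were higher than at 3 months.

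At 12 months, with 2 mice, 4 of 9 members rose (Ly6c2, Plac8, Lyz2 and S100a6) and 0.797% of all genes were higher. At 16 months 8 of 9 rose, all but Ccr1, and 4.52% of all genes were higher. The counts were 6 of 9 at 19 months, against 2.74% of all genes, and 6 of 9 at 24 months, against 2.73%. The median change of the members was 1.24, 1.53, 1.07 and 1.16 on the log2 scale at 12, 16, 19 and 24 months, beside −0.01, 0.00, 0.06 and 0.10 for all genes. The neutrophil genes were higher at the same ages, with sums of 2945 to 4923 FPKM at 3 months, 8045 and 13122 at 12, 9933 to 33314 at 16, 7643 to 14071 at 19 and 5903 to 11075 FPKM at 24 months. Of these 22 genes, 6, 19, 18 and 11 rose at 12, 16, 19 and 24 months, and their part in the members' values was not tested.

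Lyz2 spread little among mice of an age. The 24-month males held 3577, 4383, 3164 and 3310 FPKM, against 2042, 2029, 2115 and 1540 FPKM in the 3-month males. The groups lay far apart, and Lyz2 rose by 0.90 (SE 0.15, adjusted p = 0.00061). It reached its highest mean at 16 months (4757 ± 836 FPKM, SD, n = 4), a rise of 1.29 (SE 0.15, adjusted p = 8.33e-07).

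Ly6c2 and Plac8, which in females overlapped the 3-month range at 24 months, did not overlap it in males. Ly6c2 had 107, 165, 71 and 95 FPKM at 24 months, against 40, 42, 53 and 28 FPKM at 3 months, with no overlap (log2 fold change 1.37, SE 0.28, adjusted p = 0.0036). Plac8 had 105, 99, 44 and 69 FPKM at 24 months, against 21, 41, 23 and 17 FPKM at 3 months, again with no overlap (log2 fold change 1.60, SE 0.35, adjusted p = 0.00677). The test of the difference between the sexes did not pass for either gene (female minus male change of −1.81 for Ly6c2, SE 0.58, adjusted p = 0.438, and −0.83 for Plac8, SE 0.62, adjusted p = 0.748), and no member was called in it, where 0.0177% of all genes were.

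S100a6 and Vim rose at 24 months. S100a6 had 45, 53, 38 and 50 FPKM at 24 months, against 15, 27, 22 and 17 FPKM at 3 months (log2 fold change 1.18, SE 0.23, adjusted p = 0.00236). Vim had 51, 48, 30 and 38 FPKM at 24 months, against 23, 15, 16 and 18 FPKM at 3 months (log2 fold change 1.16, SE 0.20, adjusted p = 0.000848). Neither gene overlapped between the ages. S100a4 did not overlap either but did not pass at 24 months, with 70, 55, 32 and 49 FPKM, against 20, 31, 11 and 26 FPKM at 3 months (log2 fold change 1.23, SE 0.39, adjusted p = 0.0929). S100a4 passed at 16 months (1.53, SE 0.39, adjusted p = 0.0121), a call lost without 16-month replicate 2 (adjusted p = 0.0624) or 3-month replicate 3 (adjusted p = 0.0732).

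Chil3 peaked at 16 months, with 375, 689, 184 and 273 FPKM, against 99, 125, 117 and 75 FPKM at 3 months (log2 fold change 1.72, SE 0.30, adjusted p = 0.000286). At 24 months it had 112, 269, 223 and 263 FPKM and did not pass (1.00, SE 0.30, adjusted p = 0.0763), but it passed without 24-month replicate 1 (1.29, adjusted p = 0.0106). Male replicate 2 of 16 months was the highest library of its age in all 9 genes, and without it Chil3 remained called at 16 months.

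The receptors passed less firmly. Ccr2 had 35, 68, 24 and 37 FPKM at 24 months, against 12, 16, 27 and 22 FPKM at 3 months, with overlap (log2 fold change 1.01, SE 0.28, adjusted p = 0.0456). This call was lost without 24-month replicate 1, 2 or 4 or 3-month replicate 1, 2 or 4 (adjusted p = 0.0625 to 0.216), and that at 16 months (0.91, adjusted p = 0.0483) without replicate 1, 2 or 4 of either age (adjusted p = 0.0684 to 0.157). Over the settings other than left-out libraries, both calls were also lost with median-ratio scaling (0.111 at 24 and 0.0535 at 16 months), the same total (0.133 and 0.103) and no variance trend (0.0506 and 0.0529), the call at 24 months with the groups alone (0.108) and the call at 16 months with a pseudocount of 5 (0.0549). Ccr1 averaged 30.2 FPKM at 3 months, 27 at 6, 17 at 9, 40.5 at 12, 50.5 at 16, 43.2 at 19 and 33.5 FPKM at 24 months. It passed across ages (adjusted p = 0.0101) but against 3 months at no single age, and its largest change was the value at 9 months (−0.77, SE 0.30, adjusted p = 0.305).

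Within the set without values between 0 and 1, with male replicates 1 and 2 as the 3-month group, all 9 genes were again higher than at 3 months at 12, 16, 19 and 24 months. The median changes were 1.54, 1.29, 1.03 and 1.10, but with these 16 libraries 0, 7, 1 and 0 members passed, beside 0.230%, 2.82%, 0.992% and 0.708% of all genes. At 24 months Ly6c2 had a log2 fold change of 1.33 (adjusted p = 0.103), S100a6 of 1.16 (adjusted p = 0.135) and Lyz2 of 0.81 (adjusted p = 0.0564) within the set.

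Without 12-month replicate 1, the count of members higher at 12 months was 0, without replicate 2 it was 1, and without 3-month replicate 4 it was 2. The lone sample left at 12 months is then assumed to vary like the other groups. Adjusted p reached 0.185 for Ly6c2, 0.463 for Plac8, 0.138 for Lyz2 and 0.137 for S100a6 over these fits.

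The male group means of all 9 genes rose between 9 and 12 months. The 9-month reference was low, with a median member change of −0.74 from 3 months. Against 3 months the 12-month median was 1.24. All 9 genes had both 12-month libraries above all 4 of the 9-month ones, as did 6.59% of all genes. By the test 8 of 9 rose (all but Ccr1), against 1.75% of all genes. The median change was 2.23 on the log2 scale, beside −0.11 for all genes.

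Plac8 had 73 and 106 FPKM at 12 months, against 22, 13, 13 and 5 FPKM at 9 months (log2 fold change 2.79, SE 0.43, adjusted p = 0.00012). S100a4 had 71 and 83 FPKM at 12 months, against 14, 16, 14 and 6 FPKM at 9 months (2.60, SE 0.47, adjusted p = 0.000919). S100a6 had 80 and 55 FPKM at 12 months, against 11, 13, 12 and 10 FPKM at 9 months (2.44, SE 0.28, adjusted p = 5.31e-06). For these 3 genes, and for Ly6c2 and Chil3 below, the lowest 12-month library stood at more than 3 times the highest 9-month one.

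Ly6c2 had 125 and 118 FPKM at 12 months, against 28, 33, 23 and 17 FPKM at 9 months (2.26, SE 0.35, adjusted p = 0.00012). Chil3 had 276 and 212 FPKM at 12 months, against 49, 62, 49 and 45 FPKM at 9 months (2.23, SE 0.37, adjusted p = 0.000341). Lyz2 had 3489 and 3765 FPKM at 12 months, against 1550, 1567, 1837 and 1393 FPKM at 9 months (1.20, SE 0.18, adjusted p = 9.88e-05). These 6 calls held without each of the 6 libraries.

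Vim, with 47 and 27 FPKM at 12 months, against 11, 15, 13 and 15 FPKM at 9 months, rose by 1.35 (SE 0.25, adjusted p = 0.00101), a call lost without 12-month replicate 1 (0.96, adjusted p = 0.169). Ccr2, with 54 and 33 FPKM at 12 months, against 16, 20, 15 and 13 FPKM at 9 months, rose by 1.36 (SE 0.35, adjusted p = 0.028), a call lost without 12-month replicate 1 (adjusted p = 0.41) or 9-month replicate 1 (0.0596), 3 (0.0665) or 4 (0.0921). Ccr1, with 47 and 34 FPKM at 12 months, against 15, 18, 19 and 16 FPKM at 9 months, did not pass (1.19, SE 0.36, adjusted p = 0.102) but did with the 2 ages fitted alone (adjusted p = 0.00465).

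Both 12-month males and none of the 9-month males, which held 1, 1, 2 and 1 such values, belong to the set without values between 0 and 1. The step and that feature therefore cannot be told apart, and no value within the set exists. The neutrophil genes moved with it, as they summed to 8045 and 13122 FPKM at 12 months, against 1438 to 2009 FPKM at 9 months, and 18 of 22 rose. Mmp9 (3.26), Retnlg (3.01), Lrg1 (2.98) and S100a9 (2.90) had the largest log2 fold changes of that list. Of 21 other monocyte genes measured, 12 rose and none fell, among them Hp (3.09), Ifitm6 (2.58) and S100a11 (2.28). Of 17 homeostatic microglia genes none passed, and their sums were 48581 and 52863 FPKM at 12 months, against 53903 to 70969 FPKM at 9 months. The part of neutrophil RNA in the members' step was not tested.

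In females 12 against 9 months gave no member, and 0.726% of all genes. There 7 of 9 members had a positive value, and by that raw threshold there were 2 members and 9.39% of all genes. Plac8 had the largest change there, with 35, 27, 23 and 61 FPKM at 12 months, against 8, 11 and 21 FPKM at 9 months (1.39, SE 0.51, adjusted p = 0.172). The female change was smaller than the male one for all 9 genes. As an interaction none of these differences passed, nor did any gene of the table (0%), with 7 members and 10.3% of all genes by that raw threshold. S100a6 came nearest (−1.87, SE 0.51, adjusted p = 0.117).

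**Figure D2:**
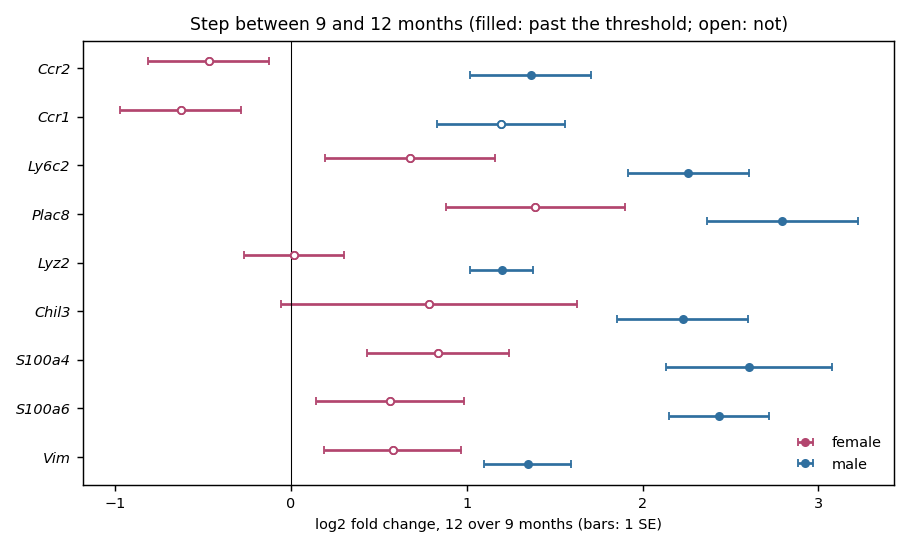
Log2 fold change of each gene at 12 over 9 months (horizontal axis, bars 1 SE) in PBS females (4 and 3 mice) and PBS males (2 and 4 mice), with filled points past the threshold. The male values run from 1.19 (Ccr1) to 2.79 (Plac8) and the female values from −0.63 (Ccr1) to 1.39 (Plac8).

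**Figure D3:**
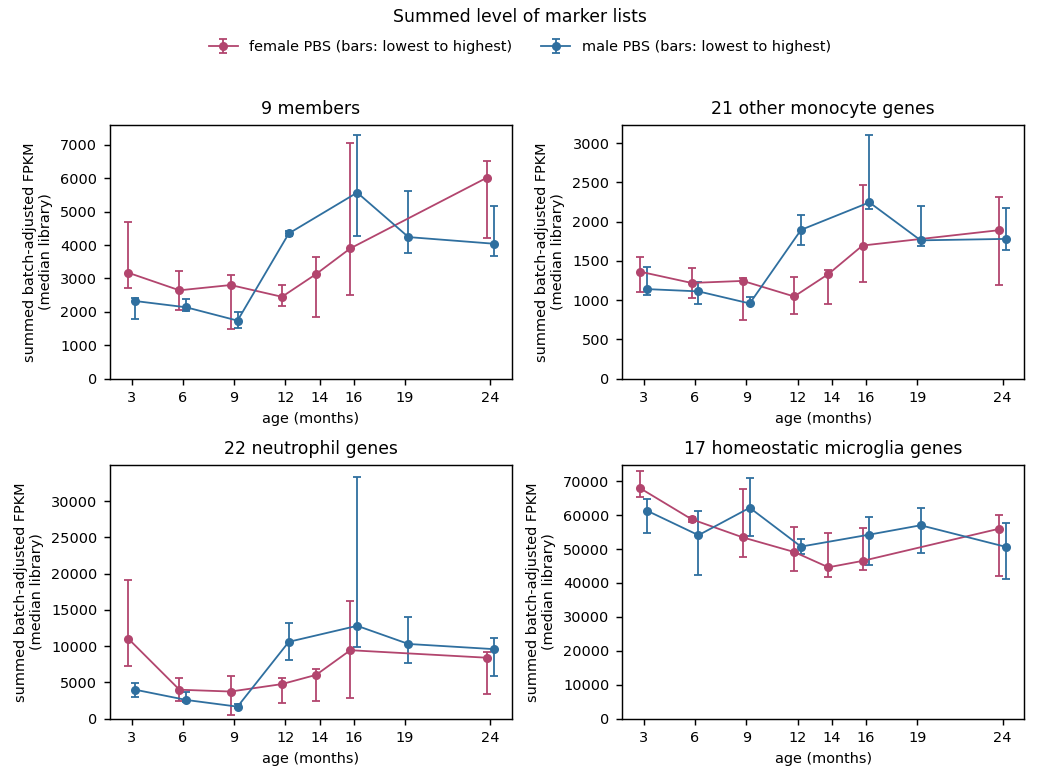
Summed batch-adjusted FPKM (vertical axes, median library with bars from the lowest to the highest) of the 9 genes and of 3 marker lists against age in months in PBS females and PBS males. The 9 genes, the other monocyte genes and the neutrophil genes all step up between 9 and 12 months in males, with neutrophil sums of 8045 and 13122 at 12 months and 1438 to 2009 at 9 months.

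Over the 6 ages that both sexes share, no member was called between females and males, and 0.230% of all genes were. Ccr1 was nearest (female over male log2 fold change −0.53, SE 0.15, adjusted p = 0.0523) and passed without female replicate 1 of 24 months (adjusted p = 0.0362) or female replicate 2 of 9 months (adjusted p = 0.0431). Plac8 followed (−0.55, SE 0.19, adjusted p = 0.125). The single ages differed in direction. All 9 members had lower values in females at 12 months (median log2 fold change −1.35, beside −0.04 for all genes), where the male group held 2 mice. None was called there, where 0% of all genes were, but by that raw threshold there were 8 members and 6.06% of all genes. At 9 months all 9 had higher values in females (median 0.31, beside −0.13 for all genes). At 3 months 6 of 9 did (median 0.30, beside 0.15 for all genes). No member was called at 9 or 3 months, beside 1.24% and 0.230% of all genes.

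LPS changed 3 of the 9 genes within 2 h, and Ccr1 was the 1 member called at all 3 ages, with single libraries deciding the call at each. At 3 months 2 members rose (Plac8 and Ccr1) and 1 fell (Ccr2), where 11.2% of all genes changed. At 14 months Ccr1 was the 1 member called, and it was higher, as were 1.40% of all genes (79 genes, while 23 were lower). At 24 months it was again the 1 member called and higher, as were 4.27% of all genes (241 genes, while 307 were lower). The PBS females here are those of the age series. The medians of the members were −0.23, 0.05 and 0.13 on the log2 scale at 3, 14 and 24 months. Those of all genes were −0.14, 0.02 and −0.15.

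Ccr1 had 44, 25 and 40 FPKM in LPS females of 3 months, against 22, 12, 19 and 22 FPKM in PBS females. At 14 months it had 34, 48, 27, 33 and 45 FPKM in LPS females, against 17, 20, 19, 22 and 20 FPKM in PBS females. At 24 months it had 50, 32 and 47 FPKM in LPS females, against 33, 13 and 16 FPKM in PBS females. The groups did not overlap at 3 and 14 months, and at 24 months 1 PBS mouse at 33 FPKM lay above the lowest LPS mouse.

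The log2 fold changes of Ccr1 were 0.92 (SE 0.27, adjusted p = 0.0271), 0.87 (SE 0.22, adjusted p = 0.0378) and 1.11 (SE 0.29, adjusted p = 0.019) at 3, 14 and 24 months. At 3 months the call was lost without LPS replicate 1 (adjusted p = 0.115) or 3 (0.118) or PBS replicate 2 (0.104). At 14 months it was lost without LPS replicate 2, 4 or 5 or PBS replicate 1, 2, 3 or 4 (0.053 to 0.0878). At 24 months it was lost without LPS replicate 1 (0.0775) or PBS replicate 2 (0.0985) or 3 (0.0523), and with the 2 groups fitted alone (0.091). Its change remained upward in all of these fits.

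Ccr2 had 13, 17 and 19 FPKM in LPS females of 3 months, against 40, 36, 43 and 29 FPKM in PBS females, with no overlap, and fell by 1.13 (SE 0.29, adjusted p = 0.0109). The call was lost without LPS replicate 1 (−0.99, adjusted p = 0.0547). At 14 months Ccr2 had 11, 27, 17, 19 and 21 FPKM in LPS females, against 18, 22, 19, 31 and 25 FPKM in PBS females (−0.29, SE 0.24, adjusted p = 0.6). At 24 months it had 16, 17 and 42 FPKM in LPS females, against 48, 55 and 33 FPKM in PBS females (−0.94, SE 0.31, adjusted p = 0.0514). The 24-month value passed without LPS replicate 3, the mouse at 42 FPKM (−1.37, adjusted p = 0.00616), and without PBS replicate 3, the mouse at 33 FPKM (−1.15, adjusted p = 0.035).

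Plac8 had 43, 82 and 72 FPKM in LPS females of 3 months, against 18, 12, 32 and 8 FPKM in PBS females, with no overlap, and rose by 1.97 (SE 0.53, adjusted p = 0.0156). The call was lost without LPS replicate 2 (adjusted p = 0.089) or 3 (0.0693) or PBS replicate 4 (0.0619). At 24 months Plac8 had 133, 54 and 70 FPKM in LPS females, against 51, 24 and 16 FPKM in PBS females (1.52, SE 0.57, adjusted p = 0.0841), and again the groups did not overlap. At 14 months the groups overlapped, since LPS replicate 1 had 27 FPKM.

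Ly6c2 had 166, 77 and 110 FPKM in LPS females of 24 months, against 54, 40 and 23 FPKM in PBS females, and the groups did not overlap (1.58, SE 0.58, adjusted p = 0.079). It passed with those 2 groups fitted alone (adjusted p = 0.0346). Lyz2 had 3224, 3047 and 2652 FPKM in LPS females of 24 months, against 5657, 5528 and 3959 FPKM in PBS females, again without overlap (−0.75, SE 0.28, adjusted p = 0.0856). None of Ly6c2, Plac8 and Lyz2 passed the threshold at 24 months. The share of all genes with such a separation between groups of 3 mice was not counted.

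The other members gave no call at any of the 3 ages. Chil3 had 120, 50 and 187 FPKM in LPS females of 3 months, against 327, 212, 404 and 133 FPKM in PBS females (−1.24, SE 0.69, adjusted p = 0.258), and passed with those groups alone (adjusted p = 0.0253). S100a4 spread from 0 to 70 FPKM among the LPS females of 14 months. In that group replicate 2 was highest in all 9 genes and replicate 1 lowest in 7.

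The neutrophil genes summed to 2340 to 4062 FPKM in LPS females of 3 months, against 7202 to 19110 FPKM in PBS females, and 11 of 22 fell while 2 rose (Il1r2 and Hdc). Among 21 other monocyte genes 4 rose at 3 months (Ms4a4c, 2.04, Cd44, 1.56, Cybb, 1.09, and Ms4a6c, 1.02) and 3 fell (S100a11, Mgst1 and Emb). At 24 months the neutrophil sums were 4344 to 16719 FPKM in LPS females, against 3405 to 9198 FPKM in PBS females, and 6 of 22 rose. Their part in the members' values was not tested.

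No member's LPS response was called as differing between ages, with 3 to 5 mice a group. At 14 against 3 months 0.301% of all genes were called, at 24 against 14 months 1.19%, and at 24 against 3 months 0%. By that raw threshold there were 1 member and 454 genes at 14 against 3 months. At 24 against 14 months there were 0 members and 881 genes, and at 24 against 3 months 0 members and 10.2% of all genes. The largest difference among members was that of Chil3 at 24 against 3 months (2.03, SE 1.01, adjusted p = 0.441).

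Of the 8 ligands of Ccr2 and Ccr1 measured, 6 rose with LPS at 3 months, led by Ccl5 (log2 fold change 3.11), Ccl12 (2.77), Ccl7 (2.38) and Ccl3 (2.05), and the list's median was 1.74. None passed at 14 months (median 0.38), and Ccl7 (1.73) and Ccl9 (0.85) rose at 24 months (median 0.61). Summed, the ligands stood at 1836 to 2362 FPKM in LPS females of 3 months, against 510 to 742 FPKM in PBS females. Ccl2, the main Ccr2 ligand that calls monocytes into tissue, rose at 3 months (1.36). With age in males, Ccl5 (2.32) and Ccl3 (1.62) rose at 24 months, and in females Ccl8 (2.17) and Ccl5 (1.86). Ccl5 is also a T and NK cell gene, and all 4 such genes measured rose at 24 months in males too, with sums of 205 to 507 FPKM at 24 months, against 48 to 78 FPKM at 3 months.

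Of 8 S100 genes measured, 6 rose in males at 12 against 9 months, S100a4 and S100a6 among them, with S100a9 (2.90), S100a8 (2.71), S100a11 (2.28) and S100a10 (1.33). S100a8 and S100a9 are neutrophil genes as well. In LPS females of 3 months S100a9 (−2.04), S100a8 (−1.81) and S100a11 (−1.81) fell, whereas S100a4 (0.65) and S100a6 (−0.45) did not pass.

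Among the 36 pairs of members, the group means of log2 values over the 17 groups correlated with r between 0.33 and 0.95 (median 0.75), as a description over groups that share the sort and the batch adjustment. The 3 genes most like each member were as follows. S100a6 was most like Lgals3 (r = 0.958), Mcemp1 (r = 0.956) and Vim (r = 0.951), and S100a4 most like S100a6 (r = 0.927), Vim (r = 0.910) and Ccl8 (r = 0.909). Vim was most like Emp3 (r = 0.967), Lgals3 (r = 0.957) and S100a6 (r = 0.951). Chil3 was most like Ifitm6 (r = 0.973), S100a8 (r = 0.962) and S100a9 (r = 0.956), and Ly6c2 most like Lcn2 (r = 0.927), Lrg1 (r = 0.927) and Mrgpra2b (r = 0.926). Lyz2 was most like Lyz1 (r = 0.996), Fxyd5 (r = 0.970) and Mcemp1 (r = 0.950), and Plac8 most like Slfn1 (r = 0.978), Cd44 (r = 0.968) and Ifitm3 (r = 0.943). Ccr2 was most like Dnajc15 (r = 0.920), Pygl (r = 0.871) and Acaa2 (r = 0.867), and Ccr1 most like Cfp (r = 0.903), Fpr1 (r = 0.902) and Trappc4 (r = 0.896). Mcemp1, S100a8, S100a9, Lcn2 and Lrg1 are on the neutrophil list, so S100a6, Lyz2, Chil3 and Ly6c2 each had such a gene among their 3.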

How the data were processed

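Per the labels and the submitters' processing notes, the authors aligned to the mm10 genome with Bowtie2 2.2.5 and HISAT2 2.0.4, estimated FPKM with RSEM 1.2.12 and adjusted these for batch by ComBat_seq. Genes averaging less than 10 FPKM were left out by them. The deposited values, used as a score, are these FPKM rounded to whole numbers except for 297 of 361408. The batches are not named in the sources used here and the depth is unknown, so counting intervals and count models were not applied. Library values summed to between 408457 and 554459.

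Values were taken as log2(value + 1), which understates the change of low genes, and fitted with limma 3.58.1 (variance trend) in R 4.3.3. Fits covered the 26 female and the 27 male PBS libraries, the 23 female libraries of the LPS ages, and 43 PBS libraries of shared ages. p-values were adjusted by Benjamini and Hochberg over 5647 genes, and calls needed an adjusted p below 0.05 with more than a 1.5-fold change. Code was tested on simulated data. The members and lists were chosen with earlier results of these data known. Named genes are all members, up to 4 called genes of a list with the largest change, and the 3 genes most like each member. Replicate numbers are those of the sample titles, from which the numbers in the descriptions differ for some libraries. Libraries of the same number were not treated as paired. Groups follow the labels, and p-values measure the spread between mice. Transcripts were aligned with Biopython 1.88, and figures were drawn with matplotlib 3.10.9. The alternatives are given in the closing section.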

Additional observations from a re-analysis of the deposited data

Results flagged for a closer look

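Of 99 combinations of a gene and a group of 4 to 10 libraries, 5 held a library that stood far from the others of its group by Dixon's test at 95%, where chance gives about 1 in 20. Vim was 16 FPKM in replicate 3 of the LPS females of 14 months, and 24 to 27 FPKM in the others. S100a4 was 17 FPKM in replicate 4 of the PBS females of 12 months, and 26 to 27 FPKM in the others. Plac8 was 11 FPKM in replicate 2 of the PBS females of 14 months, and 48 to 57 FPKM in the others. Lyz2 was 1540 FPKM in replicate 4 of the PBS males of 3 months, and 2029 to 2115 FPKM in the others. Ccr2 was 43 FPKM in replicate 1 of the PBS males of 6 months, and 20 to 22 FPKM in the others.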

How the results depend on the processing

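The alternatives were pseudocounts of 0.5 and 5, a mean of at least 50, median-ratio scaling, scaling to the same total, no variance trend and a replicate block. Further ones were the groups compared alone, an unadjusted p with the same fold, and leaving out each library. The study's methods use that unadjusted threshold for pairs of groups and an adjusted p for more groups. The alternatives for 12 and 16 months in females, for 12, 16 and 19 months in males, and the fit of males without values between 0 and 1 were chosen after seeing the data.

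A mean of at least 50 keeps only Ly6c2, Plac8, Lyz2 and Chil3, and left 2 members called in females across ages, 4 in males across ages, 0, 0 and 1 in females at 24, 12 and 16 months, 3 and 4 in males at 24 and 16 months, 4 at 12 against 9 months, and 1, 0 and 0 for LPS at 3, 14 and 24 months. This filter kept 1531 genes, of which 169 were higher and 255 lower in females across ages, and 133 and 72 in males across ages. In females it took 99 and 22, 31 and 163, and 79 and 121 at 24, 12 and 16 months. In males it took 65 and 2, and 98 and 47 at 24 and 16 months, and 40 and 11 at 12 against 9 months. For LPS it took 113 and 114, 30 and 15, and 66 and 118 at 3, 14 and 24 months. In females at 24 months the count of members was 4 with the groups alone and with the unadjusted p, and 0 with no variance trend, with the replicate block and with the same total. Of all genes, 304 were higher and 166 lower with the groups alone, 67 and 32 with no variance trend, and 75 and 17 with the replicate block. For LPS at 14 months the count of members was 0 with no variance trend (69 genes higher and 22 lower) and with the same total, and 2 with the unadjusted p. For LPS at 24 months the count of members was 2 with a pseudocount of 5 (225 genes higher and 318 lower) and 5 with the unadjusted p. The unadjusted p gave 2 and 5 members in females at 12 and 16 months, and 8 in males at 12 months. Of all genes it took 182 higher and 737 lower, 266 and 570, and 288 and 191 in these, 344 and 273 in females at 24 months, and 211 and 127, and 447 and 670 for LPS at 14 and 24 months. Males without values between 0 and 1 gave 0, 1 and 0 members at 12, 19 and 24 months. Median-ratio scaling moved the median of all genes at 12 months in females to 0.00, against −0.19 as deposited, and for LPS at 3 months gave 441 genes higher and 145 lower, against 348 and 287, at 24 months 366 and 145, against 241 and 307, and in females across ages 364 and 198, against 294 and 542. It gave 130 and 100 in females at 12 months, against 74 and 438. The same total gave 206 and 205 in males at 16 months, against 255 and 100, 105 and 46 at 19 months, against 155 and 17, and 261 and 275 across ages, against 323 and 149. It gave 61 and 38 in females at 24 months, against 88 and 30, and 46 and 34 for LPS at 14 months, against 79 and 23. The cause was not tested except where fewer genes or libraries entered.

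Without each library in turn, the number of members called ran from 5 to 7 in females across ages, 9 to 9 in males across ages, 0 to 1 in females and 5 to 6 in males at 24 months, 6 to 8 at 12 against 9 months, 1 to 3, 0 to 1 and 0 to 2 for LPS at 3, 14 and 24 months, 0 to 0 for the LPS response at 24 against 3 months, 0 to 1 between the sexes, 1 to 1 and 1 to 4 in females at 12 and 16 months, and 0 to 5, 6 to 8 and 6 to 6 in males at 12, 16 and 19 months. The largest change of Ccr1 across male ages turned upward without replicate 1 of 16 months (0.89), replicate 4 of 3 months (0.89) or replicate 1 of 9 months (0.73), and ran from −0.85 to 0.89 over the libraries left out. No other member changed direction where called.

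The replicate numbers were not paired (median correlation of residuals 4.3e-05 in females, −0.0044 in males and 0.014 in the LPS groups). The replicate block took the calls of Ccr2 in males at 24 months (adjusted p = 0.0519), 16 months (0.0547) and 12 against 9 months (0.0973), of Plac8 in males at 12 months (0.0628) and of S100a6 in females at 24 months (0.0642), and added Chil3 in males at 24 months (0.0356) and Ccr1 at 12 against 9 months (0.0462). It changed the count of members by over 1.5 times only in females at 24 months.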
